A study of Neurospora crassa with 86 samples.

Results

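The gene described here is cpc-1 (NCU04050) of the filamentous fungus Neurospora crassa, 1 of 9758 genes with deposited values. It was followed by identifier through all 86 RNA sequencing libraries and all 27 groups of strain and medium. cpc-1 lies on supercontig 12.6 of the deposited files, bases 2565204 to 2567073, a span of 1870 bases. The same bases carry cpc-1 on chromosome VI of the NC12 reference gene table. Its neighbours are NCU04049, which ends 2984 bases before it, and NCU04051, which starts 927 bases after it, so neither overlaps it.

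cpc-1 encodes the bZIP transcription factor of cross-pathway control, the Neurospora counterpart of yeast Gcn4. When an amino acid or its charged tRNA runs short, the eIF2α kinase CPC-3 (the counterpart of yeast Gcn2) slows translation initiation, cpc-1 mRNA is translated past the upstream open reading frames of its leader, and CPC1 activates genes of many amino acid pathways together. CPC-2, a WD-repeat protein of the RACK1 type bound to the ribosome, is also needed for this response. Much of the control of CPC1 is on translation, and the values here measure its transcript.

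Mycelium had been grown for 24 h in Vogel's medium with 2% sucrose, washed, and held for 4 h in a test medium. The wild type, FGSC 2489, gave 47 libraries in 14 media. The full medium held 2% sucrose and 25 mM ammonium nitrate. Further sucrose media had 1 nitrogen source each, at 50 mM for ammonium, nitrate, glutamate, glutamine, isoleucine, proline and tryptophan, 112 mM for alanine, 200 mM for glycine and 344 mM for arginine, or had no nitrogen. In 2 more media the sucrose was left out and 25 mM ammonium nitrate kept, with 2 mM mannose or with no carbon source. Strains labelled Δnit-2 (15 libraries, 5 media), Δamn-1 (12 libraries, 4 media), Δnit-4 and Δnmr (6 libraries, 2 media each) lacked the gene named, per their labels. Groups held 3 libraries, apart from 5 of the wild type in full medium and 6 without nitrogen, and the labels call the replicates biological.

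Libraries held about 6890303 to 19112124 estimated fragments, of which 6739 to 159120 came from cpc-1. Counting error was therefore at most 1.22% of a cpc-1 value, against a median coefficient of variation of 7.91% between libraries of a group. Transcripts of nit-2, nmr and NCU00445 (amn-1) were lower in the strain that lacks each gene than in every wild type library. nit-4 lay at 2.72 to 8.56 FPKM in the libraries labelled Δnit-4 and at 2.64 to 8.45 in the wild type, so its transcript gives no check of that label. Mitochondrial genes took 0.0464% to 0.174% of the summed FPKM in the 39 libraries from ammonium, nitrate, isoleucine, proline and tryptophan medium. The other 47 libraries had 0.00297% to 0.0284%, so full medium set against those 5 media also compares 2 ranges, and their part in a difference was not tested.

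cpc-1 was an abundant transcript in every group, and its group means spanned a 12.3-fold range over strains and media together. Levels are in FPKM, fragments per kilobase of transcript relative to all mapped fragments, with the authors' scaling between libraries. Single libraries lay between 386 and 5291 FPKM, and cpc-1 ranked 10 to 219 among the 9598 entries of a library, with a median rank of 63. Across the 14 wild type groups the highest mean was 9.93 times the lowest. In bulk mycelium, fewer hyphae with the transcript and less transcript per hypha cannot be told apart.

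**Figure D1:**
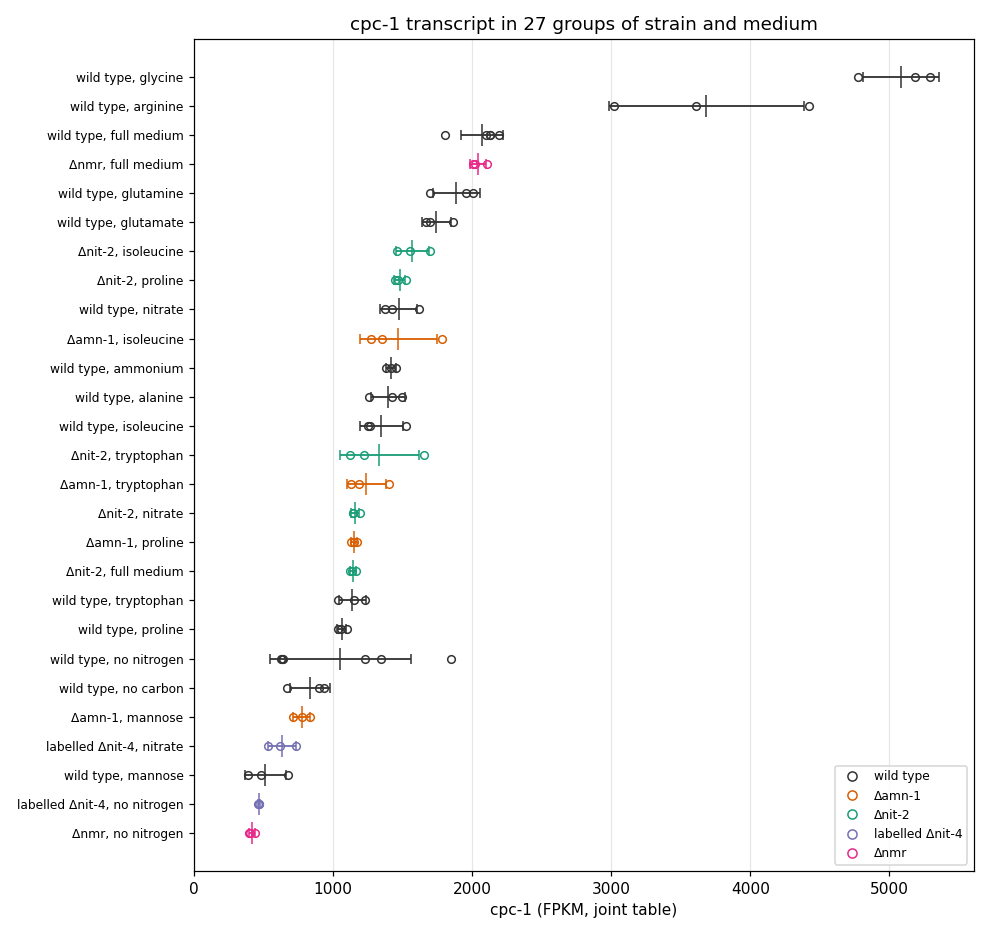
cpc-1 level (x axis, FPKM) in the 27 groups of strain and medium, ordered by mean; open circles are libraries, vertical ticks group means and bars 1 SD. Wild type in glycine and in arginine stand above all other groups, and the 6 wild type libraries without nitrogen spread from 620.3 to 1849 FPKM.

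The highest level was in wild type mycelium on glycine, with 5184, 4777 and 5291 FPKM and a mean of 5084 ± 271 (SD, n = 3). Arginine came next with 3607, 4419.6 and 3020.4 FPKM (3682 ± 703). These 6 libraries were the 6 highest of the 86, and the glycine and arginine groups did not overlap. Full medium gave 2125, 2102, 2191, 1804 and 2128 FPKM in the wild type (2069.8 ± 152, n = 5), below every arginine library.

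A middle range followed in which neighbours overlapped throughout. Δnmr in full medium had 2106, 2003 and 2018 FPKM (2042 ± 55.8, n = 3). The wild type had 2008, 1695 and 1955 FPKM on glutamine (1886 ± 168) and 1859.8, 1694 and 1668 on glutamate (1740.4 ± 104). Both amino acids are main donors of cellular nitrogen, and both groups overlapped the full medium.

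Ammonium and nitrate on their own, the inorganic sources, lay below the full medium that supplies both. On nitrate the wild type libraries had 1620.0, 1370.0 and 1421 FPKM (1470.2 ± 132), and on ammonium 1417, 1448 and 1378 (1414 ± 35.3). Alanine gave 1256, 1492 and 1426 FPKM (1391 ± 122). None of these 9 libraries reached the lowest full-medium library, and all 3 groups overlapped each other. Isoleucine gave 1522, 1267 and 1249 FPKM (1346 ± 152), tryptophan 1228, 1151 and 1035 (1138 ± 96.8), and proline 1033, 1096 and 1053 (1061 ± 31.9). The proline and tryptophan libraries all lay below the ammonium libraries.

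Δnit-2 and Δamn-1 lay in the same middle range on the nitrogen sources tested in sucrose media. Δnit-2 had 1551, 1696 and 1459 FPKM on isoleucine (1569 ± 119), 1447, 1466 and 1522 on proline (1479 ± 39), and 1656, 1222 and 1117 on tryptophan (1332 ± 285). Its nitrate libraries had 1189, 1139 and 1142 FPKM (1157 ± 28.1) and its full-medium libraries 1164, 1123 and 1135 (1141 ± 21.2). Unlike the wild type libraries, those of Δnit-2 were higher on isoleucine and on proline than in full medium, with no overlap. Δamn-1 had 1350.2, 1272 and 1783 FPKM on isoleucine (1468 ± 275), 1185, 1397 and 1129 on tryptophan (1237 ± 142), and 1149, 1130.5 and 1170.2 on proline (1149.8 ± 19.9).

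The 7 lowest group means were those of the 3 groups without nitrogen, the 3 without sucrose, and the libraries labelled Δnit-4 on nitrate. Wild type libraries without nitrogen ran from 620.3 through a median of 932 to 1849 FPKM (1052 ± 508, n = 6), the largest coefficient of variation of any group (48.3%). Without carbon the wild type had 666, 933 and 901 FPKM (833 ± 146), and on mannose 386, 671 and 479 (512 ± 145). On mannose Δamn-1 had 712, 834 and 777 FPKM (774 ± 61.2). In both strains all mannose libraries lay below those on isoleucine, proline and tryptophan. Libraries labelled Δnit-4 had 533, 619.7 and 733 FPKM on nitrate (628 ± 100.5) and 469, 467 and 459 without nitrogen (465 ± 5.01). Δnmr without nitrogen had 439.8, 396 and 404 FPKM (413 ± 23.1), the lowest group mean. Of the 26 neighbouring pairs in the order of means, 23 overlapped, and the 3 that did not were glycine over arginine, arginine over the wild type in full medium, and the libraries labelled Δnit-4 over Δnmr without nitrogen.

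The first comparison asks how each medium moved cpc-1 in the wild type relative to full medium. Differences are on the log2(FPKM + 1) scale and were tested with limma on all 86 libraries. A gene was called when its Benjamini-Hochberg adjusted p over 8558 tested genes was under 0.05 and its difference was at least 1 log2. In these 13 comparisons cpc-1 rose on glycine and fell without nitrogen, on mannose and without carbon. On glycine it was 2.46 times its full-medium mean, a difference of 1.30 (SE 0.19, adjusted p = 5.8e-09), in a comparison that called 33.5% of all genes. On mannose the difference was -2.05 (SE 0.19, adjusted p = 1.1e-15, 39.4% of genes called), a 4.04-fold lower mean. Without carbon it was -1.32 (SE 0.19, adjusted p = 3.2e-09, 36% called) and without nitrogen -1.11 (SE 0.15, adjusted p = 4.6e-09, 16.8% called). In the authors' unscaled per-sample values the differences without carbon (-0.93) and without nitrogen (-0.85) were under the size limit, and leaving out any 1 of the 3 lowest nitrogen-starved libraries gave -0.99.

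Another 7 media differed from full medium by adjusted p and stayed under the size limit. Arginine was the only one of them on the upper side, at 0.82 (SE 0.19, adjusted p = 8.1e-05), with all 3 libraries above all 5 of full medium. Proline was at -0.96, tryptophan at -0.86, isoleucine at -0.62, alanine at -0.57, ammonium at -0.55 and nitrate at -0.49, each without overlap with full medium. The largest adjusted p among these 6 was 0.020, for nitrate. By adjusted p alone 72.8% of all genes passed on arginine, 72% on proline, 73.4% on tryptophan, 68% on isoleucine, 39.8% on alanine, 51.1% on ammonium and 55.5% on nitrate, so passing by p alone was common there. Proline passed the size limit in the unscaled per-sample values (-1.19), against full-medium libraries 1 to 3 by label number (-1.02), and without the full-medium library at 1804 FPKM (-1.01). Arginine and alanine lie within the lower mitochondrial range with full medium, and the other 5 media are those of the higher range. Within the lower range, the arginine libraries had mitochondrial shares of 0.00352% to 0.00736%, below all 5 of full medium (0.00858% to 0.0210%). The part of this gap in the arginine difference was not tested.

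Glutamine and glutamate did not pass the test. The difference was -0.13 on glutamine (95% interval -0.51 to 0.24, adjusted p = 0.78, 1.13% of genes called) and -0.25 on glutamate (-0.62 to 0.12, adjusted p = 0.30, 5.35% called). These intervals exclude a change of 1 log2.

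Within the media of the higher mitochondrial range, ammonium served as the second reference. Nitrate differed from it by 0.05 (95% interval -0.36 to 0.47), isoleucine by -0.08 (-0.49 to 0.34), tryptophan by -0.32 (-0.73 to 0.10) and proline by -0.42 (-0.83 to 0.00). The smallest adjusted p was 0.077, for proline, and cpc-1 was called in none of these 4 comparisons, which called 0.993%, 11.6%, 20.9% and 17.4% of genes in that order. A limma fit without the wild type nitrogen-starved group, added after seeing the data, had smaller standard errors. There proline (adjusted p = 0.0069) and tryptophan (adjusted p = 0.038) passed the adjusted p at the same sizes, under the size limit, and nitrate and isoleucine did not. By adjusted p alone 60.6% and 62.7% of all genes passed on proline and tryptophan in the main fit. Mannose lay -0.72 from carbon starvation (SE 0.21, adjusted p = 0.0029, passed by 48.2% of genes), although 1 mannose library, at 671 FPKM, exceeded the lowest carbon-starved one.

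**Figure D2:**
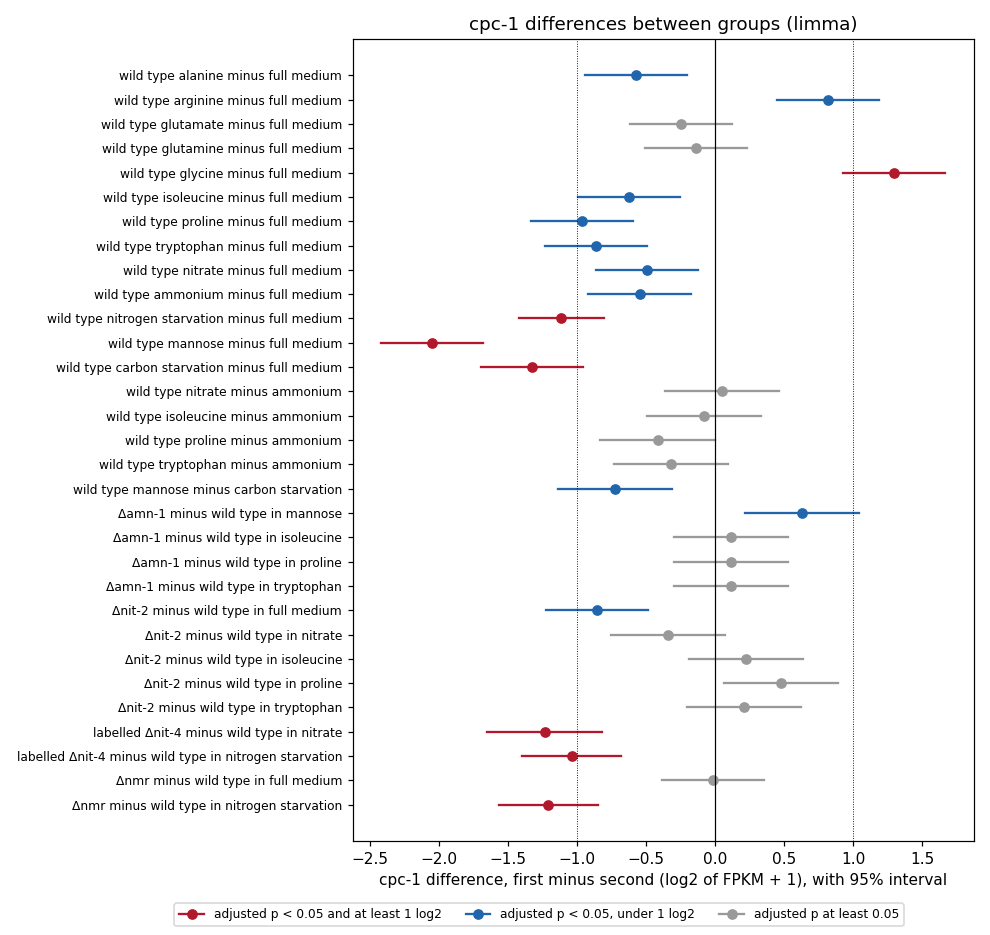
Differences in cpc-1 (x axis, log2 of FPKM + 1, first minus second group) for the 31 comparisons between groups; points are limma estimates, bars 95% intervals and dotted lines the size limit of 1 log2. Red points passed both thresholds (7), blue ones the adjusted p alone (10) and grey ones neither.

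Amino acid synthesis genes were followed through a list of 73 symbols. The members were chosen by pathway and symbol, and whether CPC1 acts on each one is not known from these data. Of the 73 symbols, 41 matched a gene, all of them tested, and no phenylalanine or tyrosine symbol matched. On glycine 30 of the 41 rose and 0 fell, where 19.5% of all genes rose, with a median difference of 1.39 against 0.08 over all genes. By pathway the members that rose were 8 of 10 for arginine, 3 of 4 for histidine, 8 of 9 for tryptophan and the shikimate route, 4 of 4 for branched-chain amino acids, 2 of 4 for lysine, 3 of 6 for threonine and methionine, and 2 of 4 for serine, proline and asparagine. The list was chosen with earlier results of these libraries known, so its direction on glycine is no independent evidence.

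The largest rise on glycine within the list was that of leu-4, which encodes α-isopropylmalate synthase, the first enzyme of the leucine branch. leu-4 stood at 1702 ± 89.2 FPKM on glycine (1599.8 to 1767, n = 3) against 70.4 ± 4.78 in full medium (63.3 to 74.7, n = 5), a difference of 4.58 (SE 0.24, adjusted p = 4.9e-26). That is a far wider gap than for leu-1, the dehydrogenase of the same branch, at 382 ± 40.1 against 153.6 ± 12.2 FPKM (1.31). arg-6, for an early step of arginine synthesis, had 457 ± 35.0 against 100.6 ± 9.41 FPKM (2.17), and trp-3, tryptophan synthase, 379 ± 14.2 against 84.2 ± 5.60 (2.16). arg-2, the small subunit of the arginine-pathway carbamoyl phosphate synthetase, had 1107 ± 67.6 against 345 ± 14.7 FPKM (1.68). The lysine gene lys-5 had 2087 ± 11.3 against 655 ± 27.7 FPKM (1.67), met-5, homoserine O-acetyltransferase, 187 ± 15.1 against 51.3 ± 5.94 (1.85), and the proline gene pro-4 179 ± 9.76 against 63.1 ± 3.85 (1.49). None of these genes overlapped between glycine and full medium. his-7 was at 2.55 in an entry merged with its neighbour NCU00149, and at 0.97 by its own scaled per-sample values, so the merged entry overstates it.

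Not every gene of translation or of amino acid use moved upward on glycine. All 7 ribosomal protein genes with a crp symbol fell, with a median of -2.62. Of all genes 33.5% were called there, and by scaled per-sample values 15.2% fell. cpc-2 fell from 1483 ± 239 FPKM in full medium to 267 ± 14.3 on glycine, a difference of -2.46. cpc-3 rose from 27.0 ± 6.73 to 71.7 ± 1.55 FPKM, a difference of 1.42. mtr, the permease of neutral and aromatic amino acids, fell by 1.04 log2, and pmg, the general permease, was at -0.18 and not called. Of 5 aminoacyl-tRNA synthetase genes, 1 rose and 1 fell, where 33.5% of all genes were called and 19.5% rose.

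Arginine gave a different set of values although cpc-1 was second highest there. There 3 of the 41 synthesis genes rose and 8 fell, while 32% of all genes were called and 15% fell, and the median was -0.10 against 0.01 over all genes. By scaled per-sample values 3 rose as well, where 17.3% of all genes did. The share of members called on arginine was thus no larger than that of all genes. arg-4, of the arginine pathway, rose from 164 ± 4.09 to 509 ± 24.5 FPKM (1.63), and lys-5 rose from 655 ± 27.7 to 1966 ± 457 (1.56). his-6 rose from 194 ± 43.2 to 503 ± 127 FPKM (1.37). The falls included met-8, methionine synthase, from 2101 ± 105 to 187 ± 20 FPKM (-3.49), and leu-1, from 153.6 ± 12.2 to 18.6 ± 9.75 (-3.09). leu-4, which rose on glycine, fell on arginine to 29.9 ± 3.03 FPKM (-1.21). leu-2, arg-1, arg-14, lys-7 and pro-4 were the other genes that fell. arg-14, for acetylglutamate synthase, is merged with NCU11370 and was at -2.08 by its own per-sample values. Neither cpc-2 (0.29) nor cpc-3 (0.50) was called on arginine, and 0 of the 7 ribosomal protein genes were. Glycine and arginine share the full-medium libraries as reference.

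Mannose and carbon starvation, where cpc-1 fell, held the lowest levels of amino acid synthesis genes. On mannose 37 of 41 fell and 1 rose, where 17.6% of all genes fell, with a median of -3.40 against 0.14 over all genes. Without carbon 37 fell and 0 rose, where 16.3% of all genes fell, with a median of -2.78 against 0.09. The 1 that rose on mannose was arg-14, whose own per-sample value was 0.34 and under the limit. ilv-2, acetohydroxyacid reductoisomerase, stood at 5.65 ± 1.78 FPKM on mannose and 26.1 ± 5.35 without carbon, against 734 ± 83.5 in full medium (-6.82 and -4.77). arg-3, the large subunit of the carbamoyl phosphate synthetase, stood at 1.12 ± 0.23 and 2.32 ± 0.47 FPKM against 102 ± 6.39 (-5.61 and -4.97). lys-3 stood at 1.01 ± 0.46 and 2.56 ± 0.36 FPKM against 75.8 ± 4.68. cpc-1 itself kept 512 and 833 FPKM in these media, so its own difference was the smaller one. Set against carbon starvation, mannose had 5 lower members (aro-1, aro-7, arg-2, lys-6 and ilv-2) and 1 higher, the arg-14 entry, where 11.2% of all genes were called and 5.46% were lower. By its own scaled per-sample values arg-14 was at 0.41 there, under the limit. Both general control regulators fell on mannose, cpc-2 by 3.23 and cpc-3 by 1.00 log2, and all 7 ribosomal protein genes fell in both media.

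The list was also counted in wild type media where cpc-1 was not called. On glutamate, where cpc-1 did not pass, 9 of 41 fell and 0 rose, with a median of -0.79, and 1.54% of all genes fell. With full-medium libraries 4 to 5 alone 4 fell, where 1.18% of all genes did. By adjusted p alone 31 passed on glutamate, where 37.8% of all genes did. his-6 at -1.54 and met-7, cystathionine γ-synthase, at -1.44 were the largest of these falls. On glutamine 0 members were called in either direction by limma, where 1.13% of all genes were. Against full medium 14 members fell and 0 rose on isoleucine, 14 fell and 2 rose on proline, and 16 fell and 2 rose on tryptophan. All genes were called there at 22%, 27.3% and 28.6%, and fell at 9.65%, 12.7% and 12.8%. Against ammonium, within the same mitochondrial range, 13, 11 and 16 members fell and 0 rose, where 5.22%, 8.79% and 9.51% of all genes fell. By adjusted p alone 29, 28 and 27 members passed against ammonium, where 50.1%, 60.6% and 62.7% of all genes did, and 1 passed on nitrate, where 4.02% did. arg-2 was among the falls on these 3 sources, at -2.07, -2.35 and -2.28 against full medium. The rises on proline and tryptophan were his-3, the trifunctional histidine gene (1.12 and 1.34), and arg-4 (1.18 and 1.39).

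On alanine 1 member, arg-12, ornithine carbamoyltransferase, rose (1.06), where 5.15% of all genes were called. On nitrate, with 10.9% called, his-3 (1.23) and arg-4 (1.43) rose and aro-6, a DAHP synthase gene, fell (-1.32). On ammonium, with 7.81% called and 5.52% higher, his-3 (1.17), lys-6 (1.18), pro-3 (1.05) and arg-4 (1.02) rose. The shares of members called on alanine and nitrate, 1 and 3 of 41, were no larger than those of all genes. cpc-1 lay below full medium by adjusted p alone in all 3 of these media.

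**Figure D3:**
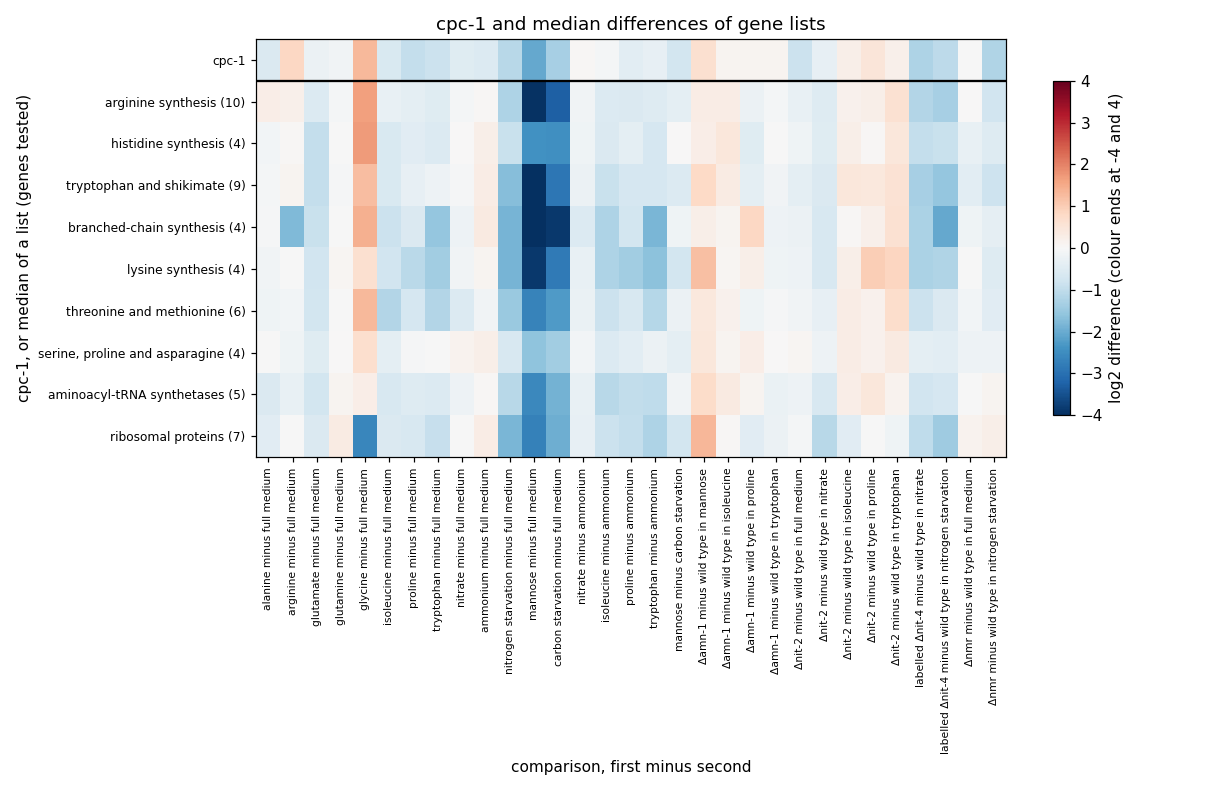
Log2 differences of cpc-1 (top row) and median differences of 9 gene lists (rows, genes tested in brackets) in the 31 comparisons between groups (columns); red is higher and blue lower in the first group. Glycine is the column with red synthesis lists above a blue ribosomal row (median -2.62), while mannose and no carbon are blue throughout.

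Wild type mycelium without nitrogen split into 2 sets by the replicate number of the labels. In per-sample values with median-ratio scaling, libraries 1 to 3 had 1461 ± 321 FPKM of cpc-1 (1218 to 1825) and libraries 4 to 6 had 672 ± 4.23 (669 to 677). The sets did not overlap. Their mitochondrial shares did not overlap either, at 0.0120% to 0.0148% in libraries 1 to 3 and 0.0245% to 0.0249% in 4 to 6. Full-medium libraries 1 to 3 (2201 ± 90.2 FPKM, n = 3) and 4 to 5 (2121 ± 239, n = 2) did overlap in cpc-1, with shares of 0.00858% to 0.00952% and 0.0174% to 0.0210%. The labels say nothing of what separates the numbers, and the part of the mitochondrial share in the split was not tested.

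Each set was therefore also set against full medium alone. With libraries 1 to 3 cpc-1 differed by -0.59 (SE 0.13), under the size limit, and with libraries 4 to 6 by -1.69 (SE 0.12). Of the synthesis genes 30 of 41 fell with all 6 libraries, where 8.78% of all genes fell, at a median of -1.48 against 0.07 over all genes. With libraries 1 to 3 alone 12 fell, where 6.82% of all genes did, and with 4 to 6 alone 35, where 12.1% did, with 0 rises each time. ilv-2 fell from 734 ± 83.5 to 103 ± 63.5 FPKM (-3.01), with single starved libraries between 54.6 and 222. met-8 fell from 2101 ± 105 to 718 ± 358 FPKM (-1.70). cpc-2 fell to 406 ± 150 FPKM (-1.94), and cpc-3, at 22.3 ± 10.3 FPKM, was at -0.34 and not called. pmg, the general amino acid permease, rose to 971 ± 293 FPKM from 216 ± 16.6, and was called.

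**Figure D4:**
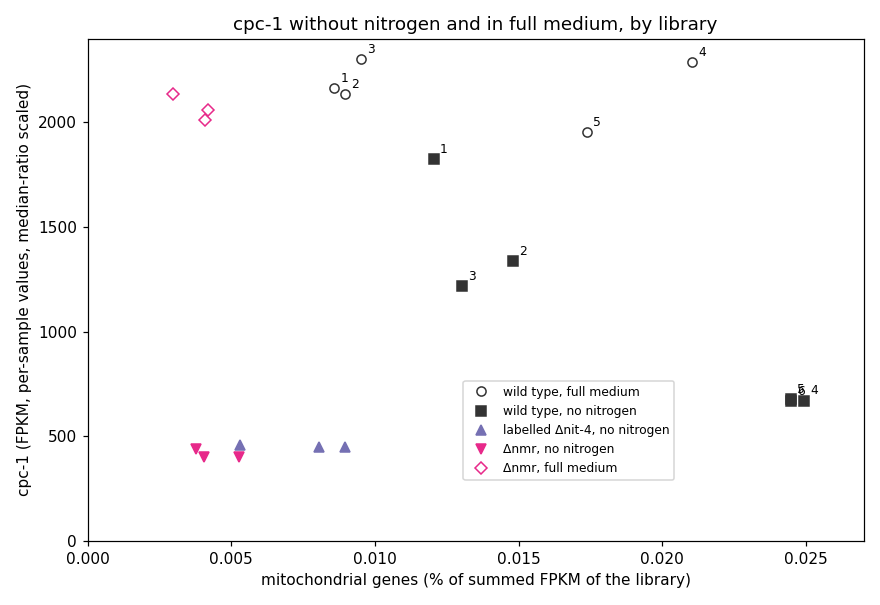
cpc-1 (y axis, FPKM, per-sample values with median-ratio scaling) against the share of mitochondrial genes (x axis, % of summed FPKM), 1 point per library, with label numbers beside the wild type points. Wild type libraries 1 to 3 without nitrogen lie at 1218 to 1825 FPKM, libraries 4 to 6 at 669 to 677, and both mutant groups without nitrogen at 399 to 457.

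Among the mutants, Δnmr lacks the protein that holds NIT2 inactive when nitrogen is plentiful. In full medium its cpc-1 did not pass the test against the wild type, at -0.02 (95% interval -0.39 to 0.35, adjusted p = 0.97), where 4.41% of genes were called. Without nitrogen the difference was -1.21 (SE 0.18, adjusted p = 1.3e-07, 5.23% called), from 1052 ± 508 (n = 6) to 413 ± 23.1 FPKM (n = 3). The difference between these 2 effects was itself -1.19 (SE 0.26, adjusted p = 0.00036, 6.47% called). Fitted on only the groups compared, with the estimates unchanged, neither passed (limma, adjusted p = 0.061 and 0.082). With wild type libraries 4 to 6 alone the starved difference was -0.71 and the difference of effects -0.64, both under the size limit. Of the synthesis genes 6 fell and 0 rose without nitrogen, where 3.72% of all genes fell, and his-6 was the 1 that fell in full medium (-1.24). With wild type libraries 1 to 3 alone 24 fell, where 4.78% of all genes did. With 4 to 6 alone 2 rose and 0 fell, where 4.39% of all genes rose and 8.56% fell. lys-3 had the largest fall, from 19.2 ± 17.3 to 3.57 ± 1.73 FPKM (-1.77). Mitochondrial shares of Δnmr were 0.00377% to 0.00528% without nitrogen and 0.00297% to 0.00417% in full medium. Both lay below every wild type library of the same medium, and the part of these gaps in the differences was not tested.

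The libraries labelled Δnit-4, for the activator of nitrate assimilation genes, had less cpc-1 than the wild type in both media tested. On nitrate the difference was -1.23 (SE 0.21, adjusted p = 5.3e-06, 7.2% of genes called), with all 3 libraries below all 3 of the wild type, and -0.95 in the unscaled per-sample values. Without nitrogen it was -1.04 (SE 0.18, adjusted p = 7.3e-06, 5.33% called), and -0.57 with wild type libraries 4 to 6 alone. The estimate did not pass when only the groups compared were fitted (limma, adjusted p = 0.12). Leaving out any 1 of the 3 highest wild type libraries gave -0.85 to -0.96, under the size limit. The difference between these 2 effects did not pass, at 0.20 (SE 0.27, adjusted p = 0.72, 2.19% of genes called). It was -0.42 with wild type libraries 1 to 3 alone (limma, adjusted p = 0.17) and 0.68 with 4 to 6 alone (adjusted p = 0.0040). On nitrate 24 of 41 synthesis genes fell and 0 rose, where 3.77% of all genes fell, at a median of -1.15 against 0.01 over all genes. They included arg-5, of the arginine pathway, at 29.7 ± 12.8 against 111 ± 4.97 FPKM (-1.97), lys-3 at 19.2 ± 8.30 against 65.4 ± 3.99 (-1.81) and ilv-2 at 196 ± 50.7 against 552 ± 76.6 (-1.52). aro-7, a DAHP synthase at the start of the shikimate route, had 106 ± 45.0 against 352 ± 17.7 FPKM (-1.82), and pmg rose by 1.25. Without nitrogen 26 fell, where 3.82% of all genes did, among them ilv-2 at 15.3 ± 3.75 against 103 ± 63.5 FPKM (-2.51). With wild type libraries 1 to 3 alone 32 fell, where 6.68% of all genes did, and with 4 to 6 alone 8 fell, where 4.13% did. Mitochondrial shares of the libraries labelled Δnit-4 were 0.00529% to 0.00894% without nitrogen, below every starved wild type library, and the part of this gap was not tested. On nitrate their shares (0.0482% to 0.0661%) overlapped those of the wild type (0.0464% to 0.141%).

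Δnit-2 lacks the GATA factor that activates the use of secondary nitrogen sources. In full medium, where ammonium is present, cpc-1 was at -0.86 (SE 0.19, adjusted p = 0.00033), under the size limit and with no overlap. By adjusted p alone 21.9% of genes passed there. Both thresholds were passed by 2.63% of genes and by 0 of the 41 synthesis genes (median -0.27). Against the wild type cpc-1 was at -0.34 on nitrate (adjusted p = 0.19, 9.01% of genes called), 0.22 on isoleucine (adjusted p = 0.44, 5.2%), 0.48 on proline (adjusted p = 0.053, 9.03%) and 0.21 on tryptophan (adjusted p = 0.46, 6.8%). The proline effect exceeded the nitrate effect by 0.82 (SE 0.29, adjusted p = 0.024), under the size limit, and 33.9% of genes passed that p. Isoleucine minus nitrate (0.57, adjusted p = 0.23), tryptophan minus nitrate (0.55, adjusted p = 0.17) and full medium minus nitrate (-0.51, adjusted p = 0.18, 6.57% of genes called) did not pass. In a fit without the wild type nitrogen-starved group, added after seeing the data, these 3 passed the adjusted p at the same sizes (0.040, 0.027 and 0.028 in that order). The Δnit-2 differences from the wild type on nitrate (limma, adjusted p = 0.035) and on proline (adjusted p = 0.0028) also passed it in that fit, both under the size limit and without overlap. Those on isoleucine and tryptophan did not pass. All 4 single-source media here share the higher mitochondrial range.

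The 41 amino acid synthesis genes were counted in Δnit-2 on each single source. On nitrate 4 fell and 0 rose, where 9.01% of all genes were called and 5.38% fell, namely arg-6 (-1.16), aro-3 (-1.10), aro-6 (-1.01) and lys-6 (-1.28). On isoleucine 4 rose, namely arg-2, arg-5, his-6 and met-7, on proline 6 and on tryptophan 8, with 0 falls. Of all genes 2.79% rose on isoleucine, 4.66% on proline and 3.93% on tryptophan. arg-2 rose in all 3, by 1.48, 1.86 and 1.72 log2, and lys-5 rose on proline by 1.48. As a difference of effects against nitrate, 6 members were higher for isoleucine, 15 for proline and 23 for tryptophan, with 0 lower, where 1.2%, 7.36% and 4.04% of all genes were higher and 2.22%, 12% and 7.58% were called. pmg went the other way in these 3 media, at -2.12, -1.90 and -2.58.

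Δamn-1 lacks a regulator encoded by NCU00445. On mannose its cpc-1 was above the wild type by 0.63 (SE 0.21, adjusted p = 0.0078, passed by 55.4% of genes), under the size limit and without overlap. There 10 synthesis genes rose and 1 fell, the latter the merged arg-14 entry, while 16.9% of all genes were called and 7.91% rose. By its own scaled per-sample values arg-14 was at -0.42, under the size limit. aro-1, the pentafunctional enzyme of the shikimate route, rose by 2.56, ilv-2 by 2.55 and arg-2 by 1.96, and 5 of 7 ribosomal protein genes rose. cpc-2 also rose (1.46), mtr fell by 2.59 log2, and cpc-3 was at -0.08. On isoleucine, proline and tryptophan cpc-1 differed by 0.12 each (95% intervals from -0.30 to 0.53), with 0.584%, 5.46% and 0.643% of genes called. On proline leu-1, leu-2 and lys-6 rose and aro-7 and aro-8 fell. The differences of effects were 0.00 for proline and for tryptophan against isoleucine (95% intervals -0.58 to 0.59), where 7.44% and 0.456% of genes were called. In the proline contrast 6 synthesis genes were lower, where 3.23% of all genes were, and 3 were higher, namely leu-1 (1.09), leu-2 (3.27) and lys-6 (1.15).

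The transcripts most like cpc-1 over the 27 group means included 4 amino acid synthesis genes and for, a gene of one-carbon metabolism. Likeness was measured as Pearson's r of mean log2(FPKM + 1) and is a description, since groups share scaling and many share a medium. lys-5 had the highest r, 0.918, followed by NCU07982 (0.906), NCU03876 (0.890), for (0.884), NCU09540 (0.882), lys-3 (0.881), met-5 (0.880), naf-1 (0.876), NCU04172 (0.875) and aro-1 (0.875). The for gene encodes cytosolic serine hydroxymethyltransferase, which interconverts serine and glycine. The lowest r were those of NCU09033 (-0.847), NCU06999 (-0.846) and gh3-2 (-0.845), a glycoside hydrolase gene. Which genes made the 10 depended on the groups: 2 of the 10 remained with the 14 wild type groups alone and 5 without glycine and arginine.

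lys-5 and for were picked for their r over these same groups, so their likeness to cpc-1 in single media is no separate evidence. lys-5 was called in the direction of cpc-1 in all 5 of the wild type media at the ends of the cpc-1 range. Its level was 2087 ± 11.3 FPKM on glycine, 1966 ± 457 on arginine, 655 ± 27.7 in full medium, 219 ± 131 without nitrogen, 121 ± 58.8 on mannose and 120 ± 3.83 without carbon. for matched cpc-1 on glycine (1529.6 ± 92.5 FPKM, 1.37) but not on arginine, where it stood at 623 ± 154 against 594 ± 56.1 FPKM in full medium (0.04). It fell without nitrogen (-2.87), on mannose (-4.32) and without carbon (-3.74), more than cpc-1 in each.

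Of the 41 synthesis genes 39 had a positive r with cpc-1, and 36, or 87.8%, had an r above 0.5, where 11.8% of all tested genes did. Their median r was 0.672 against -0.046 over all genes. They made up 4 of the 10 and 16 of the 100 genes most like cpc-1, and 41 of all 8557 genes compared with it. The list was chosen with earlier results of these libraries known, so these counts are no independent evidence. aro-1, arg-12 (0.843, ornithine carbamoyltransferase) and aro-7 (0.853) were near the top, and asn-2 (-0.119) and the merged arg-14 entry (-0.442) were the 2 below 0. cpc-3 had an r of 0.625 and cpc-2 of 0.550. The median of the ribosomal protein genes was 0.454, and that of the 3 amino acid permeases 0.382.

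**Figure D5:**
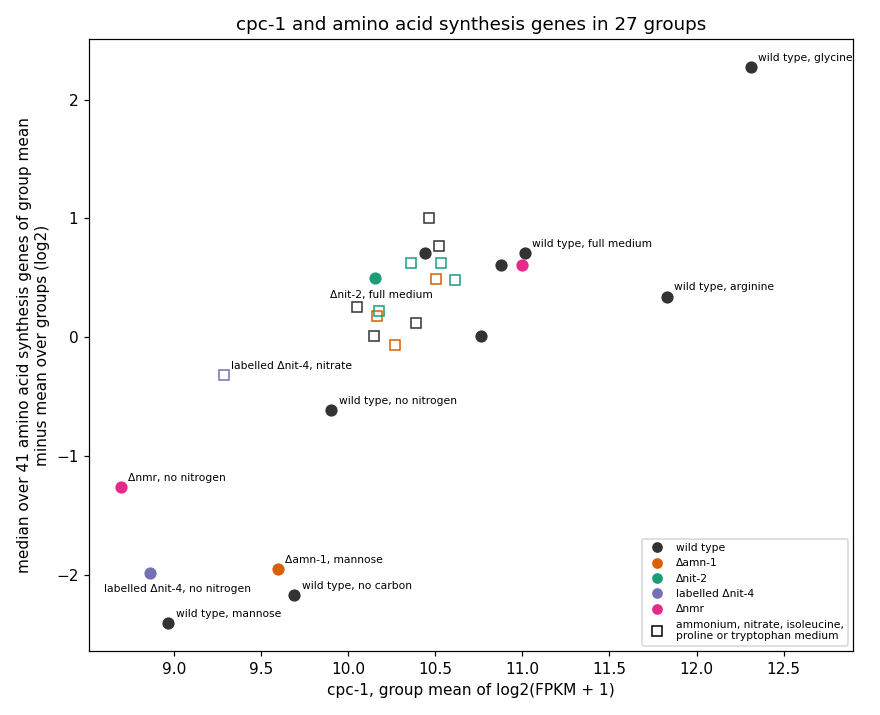
Median level of the 41 amino acid synthesis genes (y axis, log2 relative to each gene's mean over groups) against cpc-1 (x axis, mean log2 of FPKM + 1), 1 point per group; open squares are the 13 groups in media of the higher mitochondrial range. The groups rise from mannose at lower left to glycine at upper right (r = 0.812 over 27 groups), with arginine below that course.

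The median level of the list had an r of 0.812 with cpc-1 over all 27 groups. Within the 13 groups of the higher mitochondrial range it was 0.743, and within the other 14 it was 0.870. On arginine, with the second-highest cpc-1, the list median was 0.34, against 0.71 in full medium and 2.28 on glycine.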

How the data were processed

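RNA was sequenced from 86 cultures in 27 groups. The authors' FPKM came as 1 file per library and as a joint table with scaling between libraries. The tools named in the submitters' processing notes are Cuffnorm 2.2.1, HISAT2 2.1.0 and Cufflinks 2.2.1, with no role or order given. The sources used here name no genome build, annotation or strand setting. The joint table has 9598 entries, of which 153 merge neighbouring genes. The number in a column name differed from the label's number for 51 of 86 columns, so columns were used by group, and work by label number used per-sample values with median-ratio scaling. Fragments per library and gene were estimated from the deposited confidence bounds, and 78.5% of estimates under 20 came out whole within 0.05. Gene symbols came from the RefSeq table of NC12, where 9757 of 9758 identifiers matched. The identifier of amn-1 came from background knowledge. No sequences were used.

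FPKM are not counts, so log2(FPKM + 1) of the joint table was tested with limma 3.58.1 in R 4.3.3, with 1 mean per group over all libraries and a trended prior (59 residual and 3.73 prior degrees of freedom). The 8558 entries at or above 1 FPKM in 3 or more libraries were tested, and adjusted p are Benjamini-Hochberg values from limma over them. Called means an adjusted p under 0.05 and at least 1 log2. The 39 comparisons were 31 between groups and 8 between effects. The method was tested on simulated data. Tables and plots were made in Python 3.11.15 with numpy 2.4.6, pandas 2.3.3 and matplotlib 3.10.9.

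The gene, lists and tests were chosen with earlier results of these data known. Named genes were cpc-1, cpc-2, cpc-3, a fixed panel, the 10 highest and 3 lowest in r, and, where cpc-1 was called, the called member of each synthesis list with the largest difference. Any other gene named was chosen after its values were seen. ilv-3 and lys-1 of the panel matched no gene. Of 100 replicate pairs 0 were identical.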

Additional observations from a re-analysis of the deposited data

Results flagged for a closer look

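The lowest wild type library in full medium had 1804 FPKM of cpc-1, apart from the other 4 at 2102 to 2191, by Dixon's test at 95%. It was the only such library in 20 tests, over cpc-1, cpc-2, cpc-3 and the panel genes in the wild type groups of 5 and 6 libraries, where chance gives about 1 in 20. Leaving it out moved the proline difference past the size limit (-1.01) and changed no other call against full medium.

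The effect of Δnit-2 on cpc-1 differed between proline and nitrate by 0.82 (SE 0.29, limma, adjusted p = 0.024). Leaving out each library in turn gave 0.75 to 0.87, and the lowest of these, without the highest wild type nitrate library, had an adjusted p of 0.054. The effect of Δnmr differed between nitrogen starvation and full medium by -1.19 (SE 0.26, limma, adjusted p = 0.00036), with 1052 ± 508 FPKM in starved wild type libraries (n = 6) and 413 ± 23.1 in Δnmr (n = 3). Against wild type libraries 1 to 3 alone it was -1.74, and against 4 to 6 alone -0.64.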

How the results depend on the processing

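Over all alternatives of the 39 cpc-1 differences, 717 values kept direction and side of the thresholds, 20 reversed in sign, 19 lost and 4 gained a call. A pseudocount of 0.1, no filter (9508 genes), a filter at 10 FPKM (6839 genes) and, added after seeing the data, a fit without the wild type nitrogen-starved group moved no cpc-1 difference across both thresholds. That last fit had standard errors 0.66 times as large, and 18 of 28 differences between groups passed the adjusted p, against 14, as did the Δnit-2 differences of effects on isoleucine, tryptophan and full medium against nitrate. Unscaled per-sample values (8735 genes) gave -1.19 for proline, past the limit, and -0.85 for nitrogen starvation, -0.93 for carbon starvation, -0.95 for Δnit-4 on nitrate and -0.92 for Δnit-4 without nitrogen, all short of it. Fits of only the groups compared lost the calls of Δnit-4 (-1.04, adjusted p = 0.12) and Δnmr (-1.21, adjusted p = 0.061) without nitrogen and of the Δnmr difference of effects (-1.19, adjusted p = 0.082). With scaled per-sample values and no replicate block such fits gave -1.12 (adjusted p = 0.072) for Δnit-4 and -1.19 (adjusted p = 0.06) for the Δnmr difference. With the replicate block proline was -1.02, past the limit, and the Δnit-4 difference of effects reversed to -0.42. Label numbers above 3 occur only in the wild type in full medium and without nitrogen, so the block takes those libraries out of the estimate. These blocked estimates are therefore those of libraries 1 to 3, given again below, and not a separate result. Same-numbered libraries 1 to 3 did not deviate together between groups (every pair over 0.1 in 0 of 31 comparisons, r from -0.34 to 0.41). That check takes each number singly, so it cannot show whether libraries 1 to 3 share something that libraries 4 to 6 lack. By label number, full-medium libraries 1 to 3 gave -1.02 for proline. Starved wild type libraries 1 to 3 gave -0.59 against full medium and -0.42 for the Δnit-4 difference of effects, and libraries 4 to 6 gave -0.57 for Δnit-4, -0.71 for Δnmr and -0.64 for the Δnmr difference. The near-zero Δamn-1 difference of effects on proline was -0.013 with median-ratio scaling and -0.021 with scaled per-sample values, whether all groups were fitted or only those compared, with or without the replicate block. Leaving out single libraries gave -1.01 to -0.94 for proline, -1.30 to -0.99 for nitrogen starvation, -0.020 to 0.10 for nitrate against ammonium, -0.033 to 0.21 for Δamn-1 on isoleucine, -1.16 to -0.85 for Δnit-4 without nitrogen, -0.065 to 0.0051 for Δnmr in full medium, and -0.094 to 0.15 and -0.093 to 0.15 for the Δamn-1 differences of effects on proline and tryptophan. The causes were not tested.

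Synthesis genes by adjusted p alone numbered 7 on alanine, 25 on arginine, 31 on glutamate, 26 on isoleucine, 27 on proline, 30 on tryptophan, 18 on nitrate and 20 on ammonium, where 39.8%, 72.8%, 37.8%, 68%, 72%, 73.4%, 55.5% and 51.1% of all genes passed. Against ammonium they were 1 on nitrate, 29 on isoleucine, 28 on proline and 27 on tryptophan, and 17 for mannose against carbon starvation, where 4.02%, 50.1%, 60.6%, 62.7% and 48.2% of all genes passed. With full-medium libraries 4 to 5 alone the calls were 0 on alanine, 4 on glutamate and 6 on nitrate (4.52%, 4.81% and 11% of all genes). Ammonium had 2 with scaled per-sample values (7.7%) and with full-medium libraries 1 to 3 (8.18%), and nitrogen starvation 12 with starved libraries 1 to 3 (11.9%). Of the 10 genes most like cpc-1, 2 remained with wild type groups alone, 4 after centring within the mitochondrial ranges and 5 without glycine and arginine. Counting error in cpc-1 was small beside the spread between libraries, so the number of libraries sets its precision.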

Other observations

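Gene lists beside amino acid synthesis held values not given above. The permease gene pmb, for basic amino acids, rose on arginine (1.01) and nitrate (1.47) and fell on mannose (-2.97) and without carbon (-3.20). In Δnit-2 it fell on nitrate (-2.12), isoleucine (-1.38) and tryptophan (-1.03) against the wild type. Among the aminoacyl-tRNA synthetase genes, leu-5 was the 1 that fell on glycine (-2.51) and cyt-20 the 1 that rose (1.85). On glycine 33.5% of all genes were called. On mannose and without carbon the same 3 of 5 synthetase genes fell, cyt-18, cyt-20 and leu-6. Of all genes 17.6% fell on mannose and 16.3% without carbon, and both media were set against the same full-medium libraries.

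Of 8 symbols for other activators 4 matched, namely cys-3, nap-1, asl-1 and ada-1. asl-1 rose on arginine (1.23). The merged ada-1 entry fell on glycine (-1.35) and arginine (-1.28) and rose on mannose (1.01) and without carbon (1.65), and its own scaled per-sample value on mannose was 0.82. cys-3 and nap-1 were called in neither glycine nor arginine.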
